A study of Mus musculus with 2 samples.

Results

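Titin (Ttn), obscurin-like 1 (Obsl1), nebulin (Neb) and striated muscle enriched protein kinase (Speg) were taken by gene symbol from tables of RNA abundance in the embryonic mouse heart. They were 4 of 43346 genes, and the 64 transcript models listed for them (25 for Ttn, 13 for Obsl1, 11 for Neb and 15 for Speg) were 64 of 103639. Their longest coding sequences are 105639 nt for Ttn, 21456 nt for Neb, 9786 nt for Speg and 5412 nt for Obsl1, so that Obsl1 is the smallest of a set named for giant proteins. The series had 1 group of 2 biological replicates and no treatment, mutant or other stage. Both replicates were hearts of B6NCrl embryos (a C57BL/6N substrain) at embryonic day 10.5, male and female embryos together, pooled from 69 embryos in replicate 1 and from 51 in replicate 2. From each pool 10 ng of RNA above 200 nt was sequenced with added ERCC spike-in RNAs. A pool averages over its embryos, so the spread between the 2 pools is not the spread between hearts. With 2 samples of 1 group no test of a condition was possible, and every value is a description.

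Titin is the giant elastic filament that spans the sarcomere from the Z-disc to the M-band, and its spring region in the I-band is set by alternative splicing. The short cardiac N2B isoform keeps a heart-specific N2B element and skips most of the spring, the N2A isoform of skeletal muscle keeps the spring without the N2B element, N2BA isoforms hold both, and novex-3 is a short isoform that ends in the I-band. Nebulin lies along the thin filament and is best known from skeletal muscle, where its relative nebulette is the cardiac counterpart. Obsl1 is a cytoskeletal adaptor that binds titin at the M-band and also works with Cul7 and Ccdc8 in the 3M complex. Speg is a kinase of the myosin light chain kinase family that acts at the junctions of sarcoplasmic reticulum and T-tubule, and its gene also gives a short product, APEG-1.

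The tables held 43295923 counts on mouse genes in replicate 1 and 39786163 in replicate 2. All 14 heart muscle markers were detected (1 TPM or more in both pools; TPM is a relative abundance per transcript length), led by Actc1, Myl7 and Myl2, so the labelled tissue matched its markers. The 12 liver markers, led by Afp, Trf and Apoa2, summed to 1619 TPM in replicate 1 and 82.6 TPM in replicate 2, with Ahsg alone below 1 TPM in both pools and none at 0 in both. The 8 red cell markers, led by Hbb-y, Hbb-bh1 and Hba-x, summed to 32690 and 40909 TPM. In bulk RNA fewer cells of a type and less RNA per cell cannot be told apart.

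Ttn was the most abundant of the 4 genes and Neb the least, on the TPM scale. Ttn (chr2:76703980-76982547, minus strand of GRCm38) had a level of 295 TPM in replicate 1 and of 460 TPM in replicate 2, estimated from 96450 and 142365 counts. The deposited credibility intervals of those levels, 286 to 296 and 446 to 458 TPM, did not overlap, so the pools differed by more than the estimation error of each table. Ttn was the only one of the 4 genes whose intervals lay apart. Of 14124 genes with a mean count of 50 or more, 19% had intervals apart with the higher level in replicate 2 and 33.3% with the lower. Among all genes Ttn had rank 522 in replicate 1 and rank 312 in replicate 2 by TPM.

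Obsl1 (chr1:75479310-75506452, minus strand) stood at 88.7 and 86.9 TPM, from 7925 and 7239 counts. Speg (chr1:75375297-75432320, plus strand) stood at 64.7 and 67.7 TPM, from 3206 and 3313 counts. Each of these 2 genes had nearly the same level in both pools, and their deposited intervals overlapped. Neb (chr2:52136647-52378474, minus strand) stood at 0.62 and 1.4 TPM, from 78 and 143 counts, with exact Poisson 95% intervals of 61.7 to 97.3 and 120.5 to 168.5 counts. Neb was therefore measured above the floor of 3 counts in both pools, but at a level where its models cannot be apportioned with precision.

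The means over the 2 pools were 377 ± 117 TPM for Ttn, 87.8 ± 1.30 TPM for Obsl1, 66.2 ± 2.09 TPM for Speg and 1.01 ± 0.55 TPM for Neb (SD, n = 2 for each). All neighbours in that order kept it in both pools. Ttn exceeded Obsl1 3.33-fold in replicate 1 and 5.29-fold in replicate 2 by TPM, a mean log2 ratio of 2.07 ± 0.47 (SD, n = 2). Obsl1 exceeded Speg only 1.37-fold and 1.28-fold, a mean log2 ratio of 0.41 ± 0.07. The step from Speg to Neb was far wider, with a mean log2 ratio of 6.15 ± 0.79.

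The lead of Ttn over Obsl1 depended on which length the counts were divided by. Divided by the longest model of each gene (106.8 kb for Ttn and 5.679 kb for Obsl1), Ttn had 903 and 1333 counts per kb and Obsl1 had 1395 and 1275. On that scale the log2 ratio of Ttn over Obsl1 was -0.63 in replicate 1 and 0.06 in replicate 2, so the order was reversed in replicate 1 and level in replicate 2. Over models of 5000 nt or longer alone, Ttn stood at 44.8 and 76.6 TPM, Obsl1 at 8.12 and 11.3 TPM, Speg at 3.66 and 5.08 TPM and Neb at 0.10 and 0.20 TPM. Ttn then led in both pools, with a mean log2 ratio over Obsl1 of 2.62 ± 0.22. Most of the TPM of all 4 genes therefore lay in models shorter than 5000 nt, as the plot of levels by gene shows. For Obsl1 that limit is close to its longest model of 5.679 kb.

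**Figure D1:**
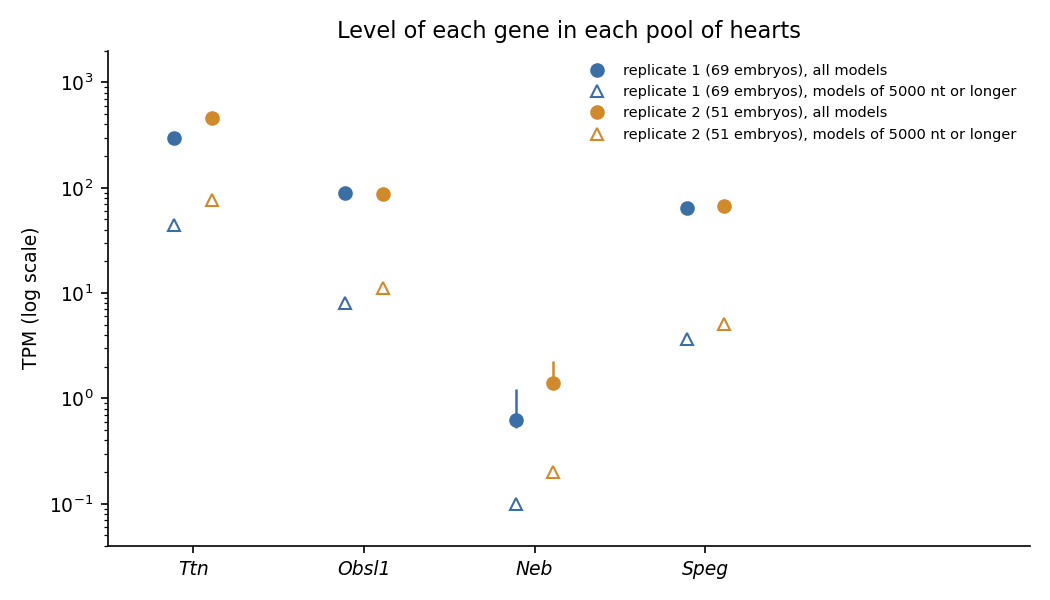
Level in TPM (log scale) of each gene in each pool of hearts. Filled circles give all models of the gene with the deposited interval as a line, and open triangles give models of 5000 nt or longer. Ttn is at the top at 295 and 460 TPM, Neb lies near 1 TPM, and the triangles sit well below the circles for all 4 genes.

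The 25 Ttn models differ at 3 places whose sequences are printed here, with exons numbered along Ttn-203, the longest model (106824 nt, 347 exons). Exon 11 (chr2:76965777-76965914, 138 nt or 46 codons) is absent from Ttn-201 and present in Ttn-215. The 2 coding sequences part directly after exon 10, and capitals mark what follows it: the start of exon 12 in Ttn-201, and the whole of exon 11 in Ttn-215.
Ttn-201, exon 10 to exon 12: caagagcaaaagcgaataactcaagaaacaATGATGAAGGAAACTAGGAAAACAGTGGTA
Ttn-215, exon 10 to exon 11: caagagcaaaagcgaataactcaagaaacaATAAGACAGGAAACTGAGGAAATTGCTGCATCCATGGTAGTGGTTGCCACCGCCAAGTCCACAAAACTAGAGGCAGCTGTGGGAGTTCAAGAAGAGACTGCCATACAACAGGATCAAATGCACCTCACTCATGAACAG

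After exon 45 the gene offers a choice among the N2B exon (exon 46, chr2:76907308-76909953, 2646 nt), exon 47, and a 6520-nt exon in which Ttn-202, the novex-3 model, ends (chr2:76913944-76920463). The first of these junctions is shared by the N2B and N2BA types, which differ in the block of exons described next. Capitals mark the bases that follow exon 45.
Ttn-201, exon 45 to the N2B exon: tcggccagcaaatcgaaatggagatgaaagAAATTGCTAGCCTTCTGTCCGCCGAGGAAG
Ttn-205, exon 45 to exon 47: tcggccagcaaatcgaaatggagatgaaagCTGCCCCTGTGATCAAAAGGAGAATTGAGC
Ttn-202, exon 45 to its last exon: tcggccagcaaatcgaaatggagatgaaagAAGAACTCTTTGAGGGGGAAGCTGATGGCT

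After exon 47, Ttn-201 skips exons 48 to 201, a block of 154 exons and 24843 nt that encodes much of the spring. The length of 151 of these exons is divisible by 3. Ttn-205 keeps 121 of the 154. Capitals mark the bases that follow exon 47, in exon 202 for Ttn-201 and in exon 48 for Ttn-205. All 7 of these coding sequences are from GENCODE M21 on GRCm38, read 5′ to 3′ on the minus strand of chromosome 2.
Ttn-201, exon 47 to exon 202: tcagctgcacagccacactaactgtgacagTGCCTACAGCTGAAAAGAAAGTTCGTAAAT
Ttn-205, exon 47 to exon 48: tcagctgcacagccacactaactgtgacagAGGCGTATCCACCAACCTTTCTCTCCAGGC

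By these features Ttn-201 is of the N2B type, with the N2B exon and without the block. It stood at 18.5 and 35.2 TPM in the 2 pools, and it held 47.8% and 55.4% of the Ttn counts. No other model held as many counts in either pool. Ttn-205, of the N2A type (block without the N2B exon), stood at 7.81 and 9.61 TPM and held 25.0% and 18.8% of the counts. The second N2A-type model, Ttn-204, brought that type to 7.92 and 9.92 TPM.

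Ttn-203, the only model with both the N2B exon and the block (N2BA type), stood at 0.49 and 0.32 TPM and held 1.64% and 0.66% of the counts. Among the models that span the gene, the N2B type led the N2A type by TPM, 2.34-fold in replicate 1 and 3.55-fold in replicate 2. The N2BA type, represented by Ttn-203 alone, was the lowest of these 3 types. The N2B type made up 68.8% and 77.5% of the TPM of these 3 types, a mean of 73.1 ± 6.13% (SD, n = 2), and 68.7 ± 6.73% by counts. The isoform types are assigned by exon content alone. Ttn-203 keeps the whole block, and no model keeps the N2B exon with only a part of it. RNA of such N2BA forms has no model of its own. Neither the level of all N2BA forms nor the N2B share of all titin RNA was therefore measured. Shorter and longer N2BA forms could not be separated either. The internal partial models, at 57.6 and 68.6 TPM, are not in these shares.

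Ttn-202, the novex-3 model (16891 nt), stood at 9.52 and 16.6 TPM. The N2B type exceeded it 1.95-fold and 2.12-fold, so novex-3 lay below the N2B type and, in both pools, above the N2A type. Its share of the counts was 5.04% and 5.37%.

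By TPM the largest share of Ttn fell on a short model instead. Ttn-215 (2159 nt, 12 exons, annotated with its end not found) covers exons 1 to 12 with exon 11 included, and its level was 190 TPM in replicate 1 against 312 TPM in replicate 2. That was 64.2% and 67.8% of the Ttn TPM, from 12.3% and 12.4% of the counts, and 10.2-fold and 8.85-fold the TPM of Ttn-201. Models with exon 11 exceeded those that join exon 10 to exon 12 by 7.21-fold and 6.36-fold in TPM. That ratio rests on Ttn-215: without it, the models with exon 11 summed to 12.9 and 18.0 TPM and lay below those that skip it, at 28.1 and 51.8 TPM. Because Ttn-215 is annotated only to exon 12, the tables do not say how its transcripts continue.

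A further 17 Ttn models lie inside the gene, most of them annotated without a known start and end. They summed to 57.6 and 68.6 TPM, led by Ttn-213 at 28.1 and 31.9 TPM, which consists of exons 104 to 137 within the skipped block. Of the 25 Ttn models 4 were listed at 0 in both pools, the longest of them being Ttn-210. The class shares are drawn by TPM and by counts in the plot of Ttn models.

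**Figure D2:**
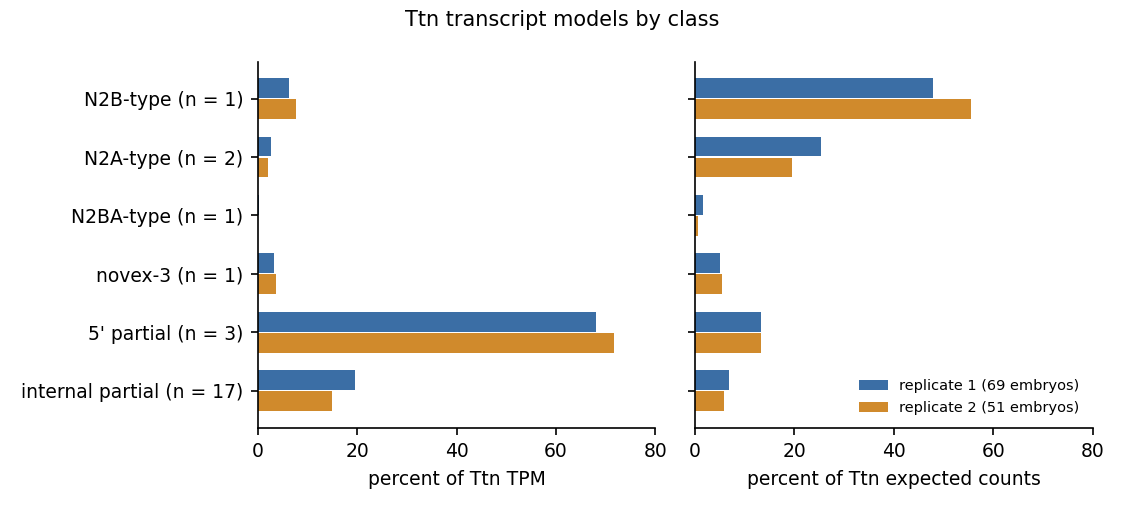
Share of each class of Ttn models in percent of the Ttn TPM (left) and of the Ttn expected counts (right), one bar per pool, with the number of models in brackets. The 5' partial models hold 68.1% and 71.6% of the TPM and 13.2% and 13.3% of the counts, while the single N2B-type model holds 47.8% and 55.4% of the counts.

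Summing the TPM of all models that contain each exon gave a profile along the gene. It is a sum of model estimates and not a coverage of reads. Exons 1 to 10 had medians of 237 TPM in replicate 1 and 391 TPM in replicate 2, and exon 11 had 202 and 330 TPM. From exon 13 to exon 45 the median was 36.5 and 62.1 TPM, so the profile dropped steeply after exon 12 in both pools. The N2B exon stood at 19.0 and 35.5 TPM.

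Within the skipped block the medians were 8.64 and 10.7 TPM. The sums of the 34 exons held by Ttn-213 include the level of that model by construction. Their medians were 48.5 and 55.0 TPM, against 8.41 and 10.7 TPM over the other 120. The 6 block exons held by Ttn-203 alone, which lie between exons 161 and 178, stood at 0.49 and 0.32 TPM, the level of that model, and exon 172 had the same values. From exon 202 to exon 347, the rest of the gene after the block, the medians were 27.0 and 45.4 TPM. The higher level in replicate 2 was less marked in the block, where the medians differed 1.24-fold, than after it, where they differed 1.69-fold. These contrasts restate the levels of the few models that hold each exon.

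**Figure D3:**
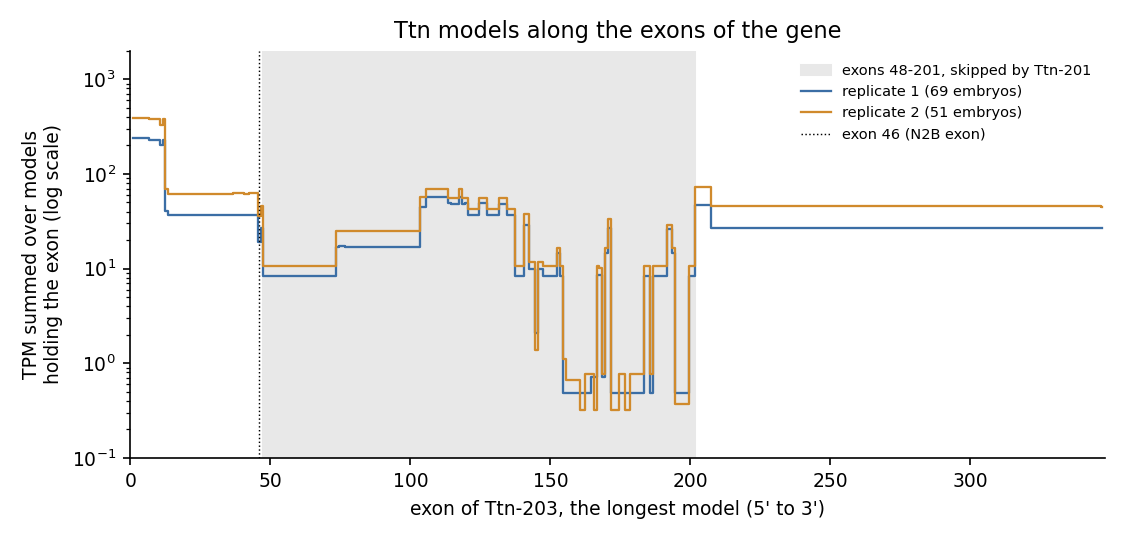
TPM summed over the Ttn models that hold each exon (log scale), along the 347 exons of Ttn-203, one line per pool. Both lines start near 237 and 391 TPM, drop after exon 12, fall below 1 TPM in parts of the shaded block that Ttn-201 skips, and are level from exon 208 to the 3' end.

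The Ttn models also use 2 start sites 92 nt apart. Ttn-205, Ttn-207, Ttn-215 and Ttn-217 start at chromosome 2 position 76982547 and summed to 209 and 339 TPM, and Ttn-201, Ttn-202 and Ttn-203 start at position 76982455 and summed to 28.6 and 52.1 TPM. The upstream start exceeded the other 7.31-fold and 6.50-fold, a ratio that also rests on Ttn-215, without which the upstream start was the lower one at 19.3 and 27.3 TPM. RefSeq (GRCm38.p6) gives the upstream position as the start of Ttn. The 250 bases before it (chr2:76982548-76982797) are shown because this start carried most of the Ttn TPM, with capitals on every match to 6 motifs searched on both strands.
Ttn promoter: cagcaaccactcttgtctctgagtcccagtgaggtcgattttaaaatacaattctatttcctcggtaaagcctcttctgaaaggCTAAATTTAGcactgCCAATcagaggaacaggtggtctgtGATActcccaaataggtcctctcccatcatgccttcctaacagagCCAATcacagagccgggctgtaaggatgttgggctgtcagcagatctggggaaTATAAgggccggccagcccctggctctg

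The motifs were the MEF2 box, the CArG box, the TATA box core TATAA, the CCAAT box, the GATA factor core GATA and the TEAD core, which reads CATTCC. The Ttn window held a MEF2 box at -166, a GATA core at -126, a CCAAT box at -151 and another at -81, and a TATA box core at -28, counted from the start site to the first base of the match. None of these matches overlapped another. Of 32817 promoter windows of the same length, 1.69% held a MEF2 box, 1.47% a CArG box, 22.8% a TATA box core, 33.8% a CCAAT box, 53.6% a GATA core and 12.6% a TEAD core. A match is a description of the letters and not a measured binding site.

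Speg has 2 kinds of coding model, a long and a short one. Speg-201 (10801 nt, 41 exons) encodes the long kinase in 3262 codons. Speg-202, Speg-203, Speg-204 and Speg-206 have a coding sequence of 113 codons, the APEG-1 type, of which 98.5% of the bases lie in the same frame within codons 855 to 966 of Speg-201, in its exons 7 to 9. The coding positions of the 4 short models are identical. The long and the short type begin at different start codons (capitals), with the first coding exon at chr1:75375440-75375833 in Speg-201 and at chr1:75401162-75401230 in Speg-202, on the plus strand in GENCODE M21.
Speg-201, first coding bases: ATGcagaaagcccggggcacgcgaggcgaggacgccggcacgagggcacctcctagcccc
Speg-202, first coding bases: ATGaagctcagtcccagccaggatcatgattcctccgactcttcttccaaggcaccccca

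The short type held most of the Speg level. Its 4 models summed to 55.9 and 58.8 TPM in the 2 pools, 86.4% and 86.9% of the Speg TPM and 55.5% and 50.4% of its counts. Speg-202 led at 41.3 and 42.3 TPM, and Speg-204 followed at 14.4 and 16.5 TPM. The 2 models that reach the 3' end of the gene, and so could encode the kinase domains, summed to 3.66 and 5.08 TPM. The short type exceeded them 15.3-fold and 11.6-fold by TPM, but only 1.58-fold and 1.16-fold by counts.

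The 2 long models changed places between the pools. Speg-201 stood at 1.19 and 3.16 TPM, with deposited intervals (0.73 to 1.64 and 2.41 to 3.69 TPM) that did not overlap. Speg-211 (9885 nt, start not found) stood at 2.47 and 1.92 TPM, with overlapping intervals. The ratio of Speg-201 to Speg-211 was 0.48 in replicate 1 and 1.65 in replicate 2, so which of them led was not stable. Their sum differed 1.39-fold.

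Exons 7 to 9 of Speg-201, which the short models share, carried 62.3 and 65.8 TPM summed over models. Most other exons carried 3.66 and 5.08 TPM. Speg-205 (3393 nt), a coding model of intermediate length, stood at 2.72 and 1.93 TPM and held 8.51% and 5.27% of the counts. Of the 15 Speg models 6 were listed at 0 in both pools, the longest of them Speg-209.

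RefSeq gives Speg 4 start sites. The windows before the start of Speg-201 (chr1:75375047-75375296) and before that of Speg-204 (chr1:75399835-75400084) are shown because they precede the long and a short coding model. Capitals mark motif matches, as for Ttn.
Speg promoter of Speg-201: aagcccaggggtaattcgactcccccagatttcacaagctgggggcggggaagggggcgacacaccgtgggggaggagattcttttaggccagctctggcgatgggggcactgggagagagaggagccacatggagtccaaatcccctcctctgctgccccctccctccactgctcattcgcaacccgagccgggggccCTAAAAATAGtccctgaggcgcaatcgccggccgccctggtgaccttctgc
Speg promoter of Speg-204: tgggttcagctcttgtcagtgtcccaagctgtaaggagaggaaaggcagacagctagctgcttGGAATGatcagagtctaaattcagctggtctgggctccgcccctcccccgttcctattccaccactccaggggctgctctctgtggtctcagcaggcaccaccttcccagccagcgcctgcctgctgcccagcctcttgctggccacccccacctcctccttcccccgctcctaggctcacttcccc

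The first of these windows held a MEF2 box at -51 and no other match. The second held a TEAD core on the opposite strand at -187 and no other match. The Obsl1 window held 1 CCAAT box at -158.

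The Obsl1 level was divided among several models, many of them not coding. Obsl1-201 (3379 nt, 9 exons) stood at 25.9 and 21.9 TPM in the 2 pools, or 29.2% and 25.2% of the Obsl1 TPM. Obsl1-207, a model with a retained intron, was at 25.4 and 22.3 TPM, just below Obsl1-201 in replicate 1 and just above it in replicate 2. Their deposited intervals overlapped within each pool, so neither was shown to exceed the other.

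Obsl1-202, the one model with all 20 exons (5679 nt), stood at 8.12 and 11.3 TPM with intervals that did not overlap between the pools (7.08 to 8.95 and 9.75 to 12.1 TPM). Obsl1-201 exceeded it 3.19-fold and 1.95-fold. Obsl1-203, with a retained intron, stood at 10.5 and 12.6 TPM, and Obsl1-211, a partial coding model, at 8.40 and 8.65 TPM. Obsl1-205, a coding fragment, was at 2.72 and 4.61 TPM, and Obsl1-209 was listed at 0 in both pools.

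The 8 retained-intron models of Obsl1 together held 49.1% and 46.6% of its TPM. Reads in retained introns can come from unspliced RNA, and how much of each model was such RNA was not tested. Summed over models, exons 3 to 5 of Obsl1-202 carried 78.5 and 76.8 TPM, and the last exon carried 8.12 and 11.3 TPM. Obsl1 therefore had higher values toward its 5' end, and the exon profiles of Speg and Obsl1 differ in shape, a narrow peak in one and a decline in steps in the other.

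**Figure D4:**
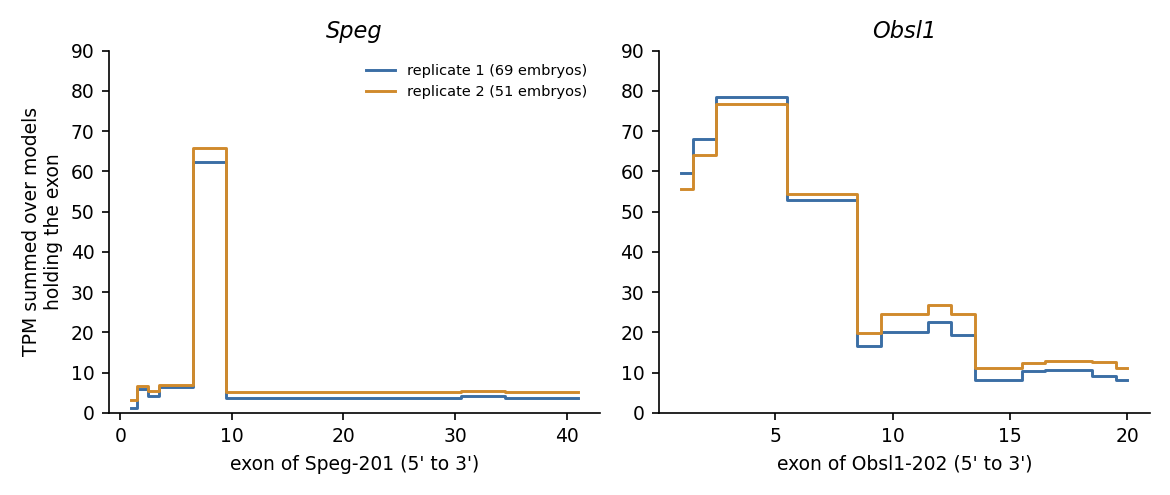
TPM summed over the models that hold each exon, along Speg-201 (left, 41 exons) and Obsl1-202 (right, 20 exons), one line per pool. Speg peaks at 62.3 and 65.8 TPM in exons 7 to 9, and Obsl1 declines from 78.5 and 76.8 TPM in exons 3 to 5 to 8.12 and 11.3 TPM in the last exon.

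Neb was close to the limit of detection, and its long models held most of what was counted. The 3 coding models above 10 kb (Neb-201, Neb-202 and Neb-203) held 61.9 counts in replicate 1 and 108.9 in replicate 2, or 79.4% and 76.2% of the Neb counts, at 0.10 and 0.20 TPM. All of the 61.9 counts of replicate 1 were placed on Neb-203, and 95.4 of those of replicate 2 on Neb-202. The split between the long models was therefore not reproduced, although their sum was measured in both pools.

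By TPM the processed transcript Neb-204 (1000 nt, noncoding) led Neb at 0.32 and 0.88 TPM, from 8.69 and 21.6 counts. Neb-208 stood at 0.13 and 0.25 TPM and Neb-211 at 0.07 and 0.06 TPM. Neb-209, the longest of 4 models listed at 0 in both pools, is a partial coding model of 3570 nt. For all 11 Neb models the deposited intervals of the pools overlapped.

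Of the 10 skeletal myoblast markers 7 were below 1 TPM in both pools (Chrng, Myod1, Chrna1, Ryr1, Myf6, Myh3 and Pax7), none was at 0 in both, and their sum was 48.5 and 49.6 TPM. Nearly all of that sum was the troponin subunit Tnni2, at 42.2 and 46.5 TPM. By TMM-scaled counts (defined with the ratios between the pools) and without a count limit, 3 of the 10 markers were higher in replicate 2, as Neb was, and 7 were lower. Only 4 had a mean count of 50 or more, 1 higher and 3 lower, where 51.6% of all genes with such counts were higher. The 3 higher ones of the 10 were Tnni2, Myh3 (0.03 TPM in each pool) and Chrng. Chrng, a subunit of the fetal acetylcholine receptor of muscle, stood at 0.28 and 0.82 TPM from 19 and 60 counts. Among the lower ones were the myogenic factors Myf5 (2.35 and 1.12 TPM) and Myog (1.95 and 0.73 TPM). Myod1 stood at 0.71 and 0.15 TPM and the satellite cell factor Pax7 at 0.02 and 0.01 TPM. Pax7, at a log2 ratio of -0.28 from 3 and 2 counts, would change sign under the spike-in scaling, which raises each ratio by about 0.32. The part of skeletal muscle precursors in the Neb level was not tested.

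Between the pools, Ttn and Neb were higher in replicate 2, and Obsl1 and Speg were nearly level. Counts scaled by TMM (a factor per library computed over all genes) gave a log2 ratio, replicate 2 over replicate 1, of 0.81 for Ttn (95% counting interval 0.80 to 0.82). It was 1.12 for Neb (0.72 to 1.54), 0.30 for Speg (0.23 to 0.37) and 0.12 for Obsl1 (0.07 to 0.16). These intervals cover counting error only. Of the 4 genes 1, Neb, reached 2-fold higher, and of 14124 genes with a mean count of 50 or more 345 did, which is 2.44%. A further 5.13% were at least 2-fold lower, so that 7.57% differed in either direction.

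All 4 members were higher in replicate 2 by some amount, as were 51.6% of the 14124 genes, whose median log2 ratio was 0.01 with quartiles of -0.22 and 0.26. Ttn lay well above that middle range, with 4.44% of genes at a ratio as high, and Speg lay just above it. Scaling to the spike-ins moved the median of all genes by 0.32 and gave log2 ratios of 1.13 for Ttn, 0.44 for Obsl1 and 0.62 for Speg. That scaling also turned the genes at 2-fold or more from 32.3% higher in replicate 2 to 68.2% higher. By deposited TPM, which moved the median by -0.10, Obsl1 was at -0.03, so its direction depended on the scaling.

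Among the transcript models, 11 of 25 for Ttn, 2 of 13 for Obsl1, 1 of 15 for Speg and 0 of 11 for Neb had deposited intervals that lay apart between the pools. All 14 were higher in replicate 2. Over all 65561 models above 0 in a pool, 5.69% lay apart and higher in replicate 2 and 9.86% apart and lower. The totals given for the 4 genes also include models at 0 in both pools, which these shares leave out. Such models numbered 4 for Ttn, 1 for Obsl1, 6 for Speg and 4 for Neb. The Ttn classes did not move by the same factor: the N2B type was 1.90-fold higher in replicate 2, novex-3 1.74-fold, the 5' partial models 1.64-fold, the N2A type 1.25-fold and the internal partial models 1.19-fold, by TPM. The N2BA-type model was at 0.65 of its replicate 1 level, with overlapping intervals.

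Other marker lists also differed between the pools. Of all genes with a mean count of 50 or more, 51.6% were higher in replicate 2 and 2.44% at least 2-fold higher. At least 2-fold lower were 5.13%. The 14 heart muscle markers were all higher in replicate 2, 5 of them by 2-fold or more (Myh7, Pln, Myl3, Myl2 and Nppa), with a median log2 ratio of 0.83. Ttn differed from that median by -0.02, Neb by 0.29, Speg by -0.53 and Obsl1 by -0.71. Among 11 liver markers with a mean count of 50 or more, all were at least 2-fold lower in replicate 2, with a median of -4.64. Endothelial markers led by Plvap, Egfl7 and Tek (7 of 8 higher, median 0.56) and red cell markers (8 of 8 higher, median 0.44) lay above the median of all genes. The part of liver RNA or of heart muscle content in the ratios of the 4 genes was not tested.

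**Figure D5:**
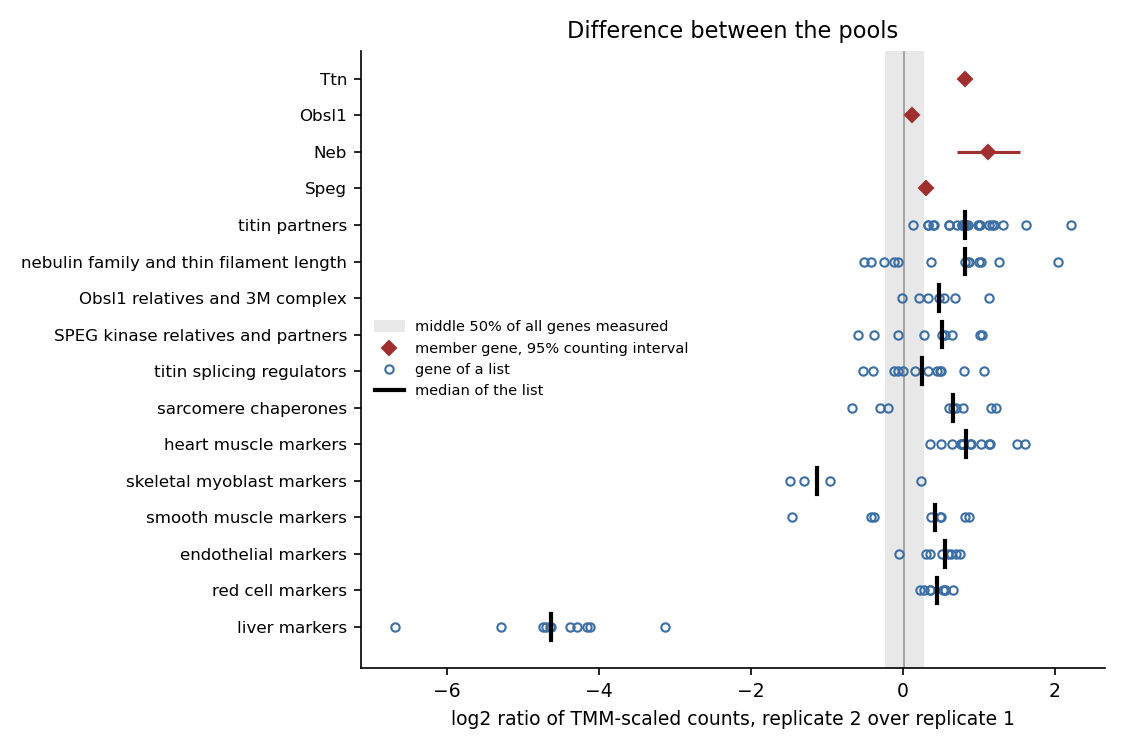
Log2 ratio of TMM-scaled counts, replicate 2 over replicate 1, for the 4 genes (diamonds, with 95% counting intervals) and for genes of each list with a mean count of 50 or more (circles, with the list median as a bar). The grey band spans the quartiles of 14124 genes, -0.22 and 0.26. Ttn at 0.81 lies beside the median of the heart muscle markers at 0.83, and the liver markers lie near -4.64.

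Most proteins that bind titin had transcripts in these hearts. Of 27 titin partners 23 were detected. All 24 with a mean count of 50 or more were higher in replicate 2, against 51.6% of all genes with such counts. Of the 24 partners 8 reached 2-fold, against 2.44% of all genes, and their median was 0.82. The most abundant were Csrp3, a Z-disc LIM protein (734 and 1043 TPM), the Z-disc crosslinker Actn2 (423 and 909 TPM) and the A-band protein Mybpc3 (374 and 872 TPM). Below 1 TPM in both pools were Myot at 0.28 and 0.17 TPM, Myom2 at 0.14 and 0.12 TPM and Myom3 at 0 and 0.04 TPM. The M-band protein Myom1, the relative of the last of these, stood at 45.0 and 92.2 TPM.

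All 13 titin splicing regulators were detected. Of 12 with a mean count of 50 or more 8 were higher in replicate 2 and 4 lower, with a median of 0.25. Of all genes with such counts 51.6% were higher and 2.44% at least 2-fold higher. In this list the most abundant members are given next. The most abundant were Srsf1 (253 and 168 TPM), the polypyrimidine tract binding protein Ptbp1 (220 and 148 TPM) and Srsf10 (189 and 159 TPM), all of which were lower in replicate 2 by TMM-scaled counts. Scaling to the spike-ins raises each such ratio by about 0.32, so genes that were lower by less than that, Srsf10 at -0.12 among them, would change sign under it. Rbm20, the factor whose loss leaves titin in long forms, stood at 12.6 and 22.2 TPM, a log2 ratio of 1.07. Rbm24, another muscle splicing factor, stood at 14.8 and 24.2 TPM, a log2 ratio of 0.81. Rbm20 was the one regulator at 2-fold or more by TMM-scaled counts. By deposited TPM none reached 2-fold and 6 were higher and 6 lower, and by spike-ins Rbm24 reached 2-fold as well. The share of the N2B type among the models that span the gene was likewise higher in replicate 2, but with 2 pools no relation between these values can be measured.

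Within the nebulin family, nebulette was abundant and nebulin was not. Nebl stood at 242 and 389 TPM, against 0.62 and 1.4 TPM for Neb. The thin filament capping protein Tmod1 stood at 110 and 182 TPM and the actin-severing protein Cfl2 at 107 and 129 TPM. Of 16 genes in this list 13 were detected. Of 13 with a mean count of 50 or more 8 were higher in replicate 2 and 5 lower, with a median of 0.82. By 2-fold 4 were higher (Nrap, Xirp1, Klhl41 and Lmod2). Among all genes with such counts 51.6% were higher and 2.44% at least 2-fold higher. By deposited TPM 2 of these, Nrap and Xirp1, reached 2-fold. Those below 1 TPM in both pools were Tmod4 (0.75 and 0.60 TPM), Klhl40 (0.31 and 0.29 TPM) and Xirp2 (0.01 and 0.02 TPM), which are known mainly from later or skeletal muscle.

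All 7 Obsl1 relatives and 3M complex genes were detected. In replicate 2, 6 of 7 were higher and 1 by 2-fold (Myom1), with a median of 0.47. Among all genes within the same count limit, 51.6% were higher in replicate 2 and 2.44% at least 2-fold higher. Myom1 led this list, followed by the 3M scaffold Cul7 at 37.2 and 43.3 TPM and its partner Fbxw8 at 25.1 and 23.3 TPM. Ccdc8 stood at 11.1 and 16.7 TPM. Summed over all models, Obsl1 exceeded Cul7, Fbxw8 and Ccdc8 in both pools on the TPM scale, a level per transcript length. Retained-intron models held 49.1% and 46.6% of that Obsl1 level. Obsl1-202 alone, the model with all its exons, lay at 8.12 and 11.3 TPM, below the totals of Cul7, Fbxw8 and Ccdc8. That sets 1 model against whole genes, and the 3 shorter coding models of Obsl1 held a further 37.02 and 35.15 TPM.

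Among 11 Speg kinase relatives and partners 9 were detected, 6 of 9 were higher in replicate 2 and 3 lower, with a median of 0.51. At 2-fold 2 were higher (Des and Mylk3). By deposited TPM neither reached 2-fold. By TMM-scaled counts, 51.6% of all genes within the same count limit were higher in replicate 2, and 2.44% at least 2-fold higher. Desmin (Des), an intermediate filament protein, stood at 284 and 543 TPM, the calcium pump Atp2a2 at 169 and 192 TPM and the cardiac myosin light chain kinase Mylk3 at 108 and 209 TPM. The skeletal kinase Mylk2 (0.05 and 0.06 TPM) and Mylk4 (0.05 and 0.03 TPM) were below 1 TPM. All 9 sarcomere chaperones were detected, 6 of 9 were higher in replicate 2, 2 of them by 2-fold (Hspb7 and Smyd1), and the median was 0.66. Hsp90ab1 (1558 and 1370 TPM), Hsp90aa1 (889 and 517 TPM) and the small heat shock protein Hspb1 (548 and 806 TPM) led the chaperones.

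Smooth muscle markers, 7 of 8 of them detected, gave 5 higher and 3 lower in replicate 2, against 51.6% of all genes higher. Their median was 0.42. They were led by Acta2 (1622 and 1946 TPM), Tagln (204 and 270 TPM) and Cnn1 (119 and 196 TPM), genes that the early heart muscle also expresses. Myh11, the smooth muscle myosin, stood at 0.56 and 0.19 TPM.

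Speg and Obsl1 lie near each other, on opposite strands of chromosome 1 with 46989 nt between them. Des lies 6717 nt from Speg on the same strand and had a log2 ratio of 1.04, against 0.30 for Speg, while Gmppa on the other side stood at 60.5 and 63.5 TPM with a ratio of 0.09. Chpf and Inha, the neighbours of Obsl1, had ratios of 0.11 and 0.20, against 0.12 for Obsl1. The ratios of Gmppa, Chpf, Inha and Obsl1 lay between the quartiles of all genes with a mean count of 50 or more, -0.22 and 0.26. Those of Des and Speg lay above.

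Ccdc141, which lies 27354 nt upstream of Ttn on the same strand, stood at 123 and 202 TPM with a log2 ratio of 0.71, near that of Ttn. Plekha3 on the other side of Ttn stood at 9.77 and 7.53 TPM with a ratio of -0.28. The neighbours of Neb, Rif1 (25.9 and 20.8 TPM) and Arl5a (52.3 and 61.7 TPM), were far above Neb in level. Of the genes that overlap a member, Tmem198 within Obsl1 had 20 and 19 counts, Gm15178 within Speg 1 and 4 counts, Gm13522 across the end of Neb at higher coordinates 1 and 0 counts, and Gm13938 within Ttn, Gm22095 and Gm13521 within Neb none. Reads of such pairs may be shared, since the use of strand in counting was not stated, but few were assigned to the overlapping genes.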

How the data were processed

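Each pool of hearts gave 1 library, and the labels call the pools biological replicates. Per the deposited description and the labels, the authors used the mm10 assembly and annotation release M4. Not given in the sources used here were the quantifying program and its strand setting. The authors deposited, per gene and per transcript, expected counts and posterior mean counts (estimated counts, not normalised), TPM, FPKM and the percent of a gene's TPM in each transcript. The deposited bounds of the TPM interval are treated as a score, and since they refer to the posterior mean, a TPM can fall outside them. Totals were 45205713 and 41070978 expected counts, with 4.22% and 3.13% on spike-ins.

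Of 43346 genes 42462 were matched to GENCODE M21 symbols. All 64 member models had the same length there. A further 2 Neb models of M21 were not used. Python 3.11.15, numpy 2.4.6, pandas 2.3.3, scipy 1.17.1 and matplotlib 3.10.9 were used, with TMM factors from edgeR 4.0.16 and size factors from DESeq2 1.42.0 in R 4.3.3, after rounding the expected counts. Tests were not run. Log2 ratios of scaled counts used a prior count of 0.5, and those of gene TPM between the pools added 0.01. TPM ratios between genes or between models added nothing. The ratio procedure was tested on simulated data. The floor of a count of 0 was taken as 3 counts per library. Counting intervals leave out all other error, and without molecular identifiers the reads are not independent.

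The members and lists were chosen with earlier results of these data known, and 1 gene of these lists is not reported here. Models were named where they held 5% or more of a gene's TPM or counts in a pool, were the longest, or were the longest at 0. Of each list the 3 most abundant members and those below 1 TPM in both pools were named, with overlapping and neighbouring genes. Ttn-204, Ttn-207, Ttn-217, Rbm20, Rbm24, Ccdc8, list members named for a 2-fold difference, and the assignment of models to classes, were chosen after values were seen. Alternatives covered FPKM, posterior means, model length, scaling, prior counts, count and fold limits, detection limits and each pool alone. Promoters are from RefSeq. Protein sequences were not used here.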

Additional observations from a re-analysis of the deposited data

How the results depend on the processing

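Over 59 results, 241 alternative values were computed, of which 4 reversed a direction and 38 others moved a main result by more than its spread or count limit. Reversed were Obsl1 between the pools by deposited TPM (log2 ratio -0.0302) and Ttn over Obsl1 by counts per kb of the longest model (-0.28). Also reversed, under an alternative chosen after seeing the data, were models with exon 11 over those without it (-1.32) and the upstream start over the other (-0.75) when Ttn-215 was left out. List members at 2-fold, counted under other scalings after seeing the data, went by spike-ins from 8 to 17 for titin partners and from 5 to 11 for heart muscle markers. Under the same change of scaling, genes at least 2-fold higher in replicate 2 went from 345 to 979 of all 14124 tested. The rise was therefore not particular to these lists. By FPKM the levels were 253 for Ttn, 58.9 for Obsl1 and 44.4 for Speg. Over models of 5000 nt or longer they were 60.7, 9.68, 4.37 and, for Neb, 0.15 TPM. Log2 ratios between the pools were 0.64 for Ttn and 0.0643 for Speg by TPM. They were 1.13, 0.44 and 0.62 for Ttn, Obsl1 and Speg by spike-ins, and 0.83, 0.57 and 0.61 by counts of long models. Genes at 2-fold or more numbered 2162 at a mean count of 10, 304 at 500, 2665 at a fold of 1.5 and 228 at a fold of 4. By counts per kb, Ttn over Speg was 1.86, Ttn over Neb 7.87, Obsl1 over Speg 2.14 and Obsl1 over Neb 8.15 (log2). Over long models, Ttn over Obsl1 was 2.62, Ttn over Speg 3.76, Obsl1 over Speg 1.15 and Speg over Neb 4.93, and by posterior means Ttn over Neb was 8.22. By counts, Ttn-215 held 12.3%, Neb-204 13.1%, Speg-202 42.8% and the short Speg models 53.0%, the last an alternative chosen after seeing the data, like that of the N2B type. By posterior means Neb-204 held 45.2% and Speg-202 61.4%, and over models of 1000 nt or longer Speg-202 held 86.2%. Detected skeletal myoblast markers were 1 at 5 TPM and 7 at a mean count of 10, and liver markers 3 at 5 TPM. By spike-ins the medians were 0.88 for endothelial and 0.77 for red cell markers. The cause of these shifts was not tested. Leaving out 1 pool gives the value of the other, which with 2 pools always lies within 1 SD of their mean and so shows no stability. No paired analysis was possible because there was 1 group. Depth limited Neb, whose 78 and 143 counts were placed on 4 models in replicate 1 and 7 in replicate 2.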
